A study of Mus musculus with 6 samples.

Results

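Oxidative phosphorylation was examined in neural stem cells of young and old mice through 96 genes, chosen by symbol among the 18193 genes that the array names unambiguously. They are the genes whose symbols start with Nduf, Sdh followed by a to d, Uqcr, Cox followed by a digit from 4 to 8, or Atp5, together with Cyc1 and Cycs. By complex, 44 belong to complex I, 8 to complex II, 9 to complex III, 17 to complex IV, 17 to complex V and 1, Cycs, is the carrier between complexes III and IV. The rule also takes in 12 assembly factors, the Ndufaf and Sdhaf genes, which help to build complexes I and II but are not part of the finished enzymes. Ndufa4 is counted with complex I by its symbol, although the protein is now assigned to complex IV. The rule reads symbols only, and it was set with earlier results of these data known.

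In oxidative phosphorylation, complexes I and II of the inner mitochondrial membrane feed electrons from NADH and succinate to ubiquinone. Complex III passes them to cytochrome c and complex IV to oxygen, and complexes I, III and IV pump protons as they do so. The ATP synthase, complex V, makes ATP from the returning protons. Adult neural stem cells are known to draw strongly on glycolysis and lipid metabolism, with mitochondrial respiration gaining weight as their progeny differentiate.

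Total RNA of neural stem cells from C57BL/6JRj mice was hybridised to 6 Affymetrix arrays, 3 from mice of 6 weeks (young) and 3 from mice of 9 months (old), with no treatment or transgene named in the labels. The series concerns how age is shared out when such cells divide, and old against young is its 1 comparison. The sources used here do not say whether replicates were separate animals, pools or cultures. Each p-value therefore reflects the spread among these 6 arrays, part of which may be technical. Levels are log2 values, and because the RNA is from many cells, fewer cells of a type and less RNA per cell cannot be told apart.

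Stem cell markers were present at both ages, with Sox2 at 13.36 to 13.51 on young and 13.26 to 13.35 on old arrays, but 2 of the 9 tested fell and 1, Msi1, rose. Hes5 fell from 7.52 or more to 2.73 or less (limma, adjusted p = 5.56e-05) as did Nes (-0.46, adjusted p = 0.00746), and Prom1 lay under the filter described next. All 5 endothelial and all 6 microglial markers stayed under it. Of the 6 astrocyte markers 4 rose, Slc1a2 fell (-0.64, adjusted p = 0.0311) and Gfap did not pass (0.31, adjusted p = 0.446). Their summed level, 13.33 to 13.41 on young and 14.25 to 14.36 on old arrays, was mostly that of Gja1. Of the neuronal markers 3 of 7 were tested and 2 fell, Tubb3 from 9.30 or more to 4.06 or less (adjusted p = 4.64e-05) and Snap25 from 4.38 or more to 3.82 or less (adjusted p = 0.0174). The summed level of that list was 13.77 to 13.82 on young and 13.81 to 13.86 on old arrays. It was mostly that of Map2, which did not pass (0.12, adjusted p = 0.0857). Stmn2 and Rbfox3 were at the floor, log2 2.14. Of the oligodendrocyte lineage markers 4 of 7 were tested and 2 fell, Cspg4 (-1.99, adjusted p = 0.000184) and Pdgfra (-1.44, adjusted p = 0.00854). Sox10, Mbp and Mog were at the floor. The summed level, 14.15 to 14.25 against 14.20 to 14.30, was mostly that of Olig1 and Olig2, which did not pass (0.04 and 0.09). Of the mural markers 2 of 5 were tested and fell, Acta2 and again Cspg4, by the same probe set as in the oligodendrocyte list. Of the ependymal ones 2 of 4 were tested, 1 higher and 1 lower. The 18 hybridisation control probe sets were lower on every old array, with a mean difference of -0.96 (two-sided exact permutation p = 0.1, and no smaller value is possible with 3 arrays an age). Whether these markers or the controls bear on the members' differences was not tested.

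A gene was tested where its brightest probe set exceeded log2 4 on at least 3 arrays, which 87 of the 96 members did. In old cells 14 of the 87 rose and 0 fell in limma at an adjusted p under 0.05 (28 and 2 at an unadjusted p under 0.05). Over all 10050 genes tested, 22.0% rose and 18.5% fell at the adjusted threshold, and 2802 rose and 2402 fell at the unadjusted one. The rises made up 16.1% of the tested members, below the share among all genes, and 0% fell. Changes were small. The median difference of the members was 0.08 on the log2 scale, against 0.01 for all genes, and 13 of the 14 rises were between 1.12-fold and 1.57-fold.

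Most members gave bright signals, with 72 of the 87 above log2 12 on average, and the highest value of any probe set was 15.61. Among all 2871 genes above log2 12, 15.6% rose and 14.8% fell, and of the 72 members 9 rose and 0 fell. The 3 old arrays all lay above the 3 young arrays for 43 of the 87 members (31.8% of all genes) and below them for 5 (28.2% of all genes). Those 5 were the complex I subunits Ndufa13 and Ndufb7, the assembly factors Ndufaf8 and Sdhaf3, and Atp5d of complex V, with differences from -0.11 to -0.24 and adjusted p of 0.0531 or more.

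The count of rises depended on single arrays and on the variance model. It was 7 without old replicate 2, 8 without old replicate 3 and 9 without young replicate 3. Of all genes 16%, 15.6% and 17.7% rose there. The count was 37 (with 3 falls) with the trend and robust options of limma's eBayes used together. Of all genes 25.8% then rose and 22.7% fell. The trend option lets variances follow the signal level. Only Ndufaf4, Ndufs1, Ndufv3, Cyc1, Cox6b2 and Cox6c kept their call in all 14 other settings of the fit with the same threshold.

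**Figure D1:**
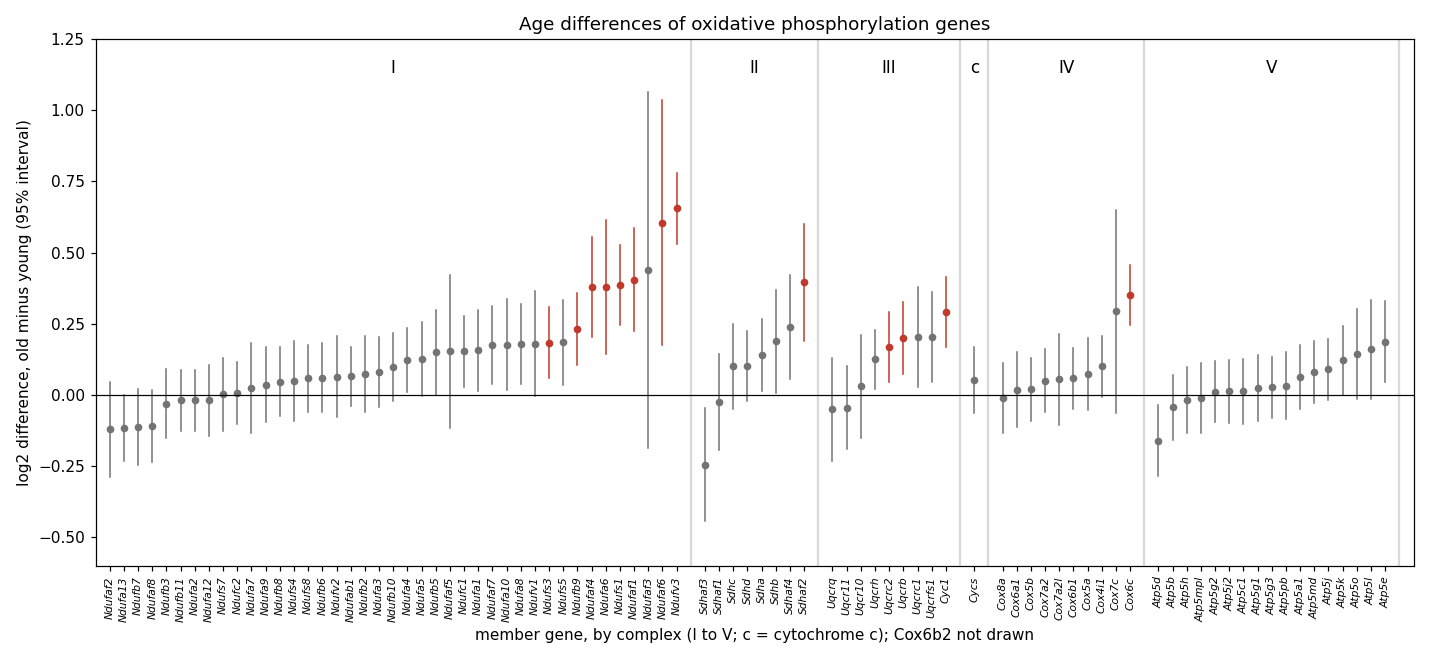
Log2 difference between old and young arrays (y axis) with its 95% interval for each tested member except Cox6b2 (x axis, by complex), with members that rose in red and the rest in grey. Members that rose are found in complexes I to IV, and the 17 genes of complex V lie between -0.16 and 0.19.

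Complex I, the NADH dehydrogenase, had 41 tested members, of which 8 rose (19.5%, against 22.0% of all genes) and 0 fell, with a median difference of 0.10. The 8 were 5 subunits and 3 assembly factors. The count was 4 without old replicate 2 or old replicate 3, where 16% and 15.6% of all genes rose, and 5 without young replicate 3, where 17.7% did. Of the 6 core subunits measured, 2 rose. All 6 have bacterial counterparts, and most of them carry the flavin, the iron-sulfur clusters or the ubiquinone site. Ndufs1, the largest core subunit, with several iron-sulfur clusters, read 12.29, 12.26 and 12.37 on the young arrays and 12.64, 12.75 and 12.68 on the old ones. The difference was 0.39 (95% interval 0.25 to 0.53, limma adjusted p = 0.0049). Every old array was above every young one, by more than the spread within either age. Ndufs3, a core subunit of the arm that faces the matrix, went from 13.79, 13.75 and 13.83 to 13.92, 14.01 and 13.99 (0.18, adjusted p = 0.0372), and its call was lost on leaving out any 1 array. The other 4 core subunits did not pass. Ndufv1, which binds NADH, differed by 0.18 (adjusted p = 0.11), Ndufv2 by 0.06, Ndufs8 by 0.06 and Ndufs7 by 0.00, the last with an interval of -0.13 to 0.13.

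Among the 27 tested accessory subunits of complex I, 3 rose (11.1%, against 22.0% of all genes) and 24 did not pass. Differences ran from -0.12 to 0.66, with a median of 0.07. Ndufv3, an accessory subunit at the NADH-binding end, had the smallest adjusted p of the members. It read 13.33, 13.24 and 13.29 on young arrays and 13.91, 13.98 and 13.93 on old ones. The ages were 0.66 apart (95% interval 0.53 to 0.78, 1.57-fold, limma adjusted p = 0.00061), with SDs of 0.046 and 0.037 (n = 3 each). Its partners in the same end of the enzyme, Ndufv1 and Ndufv2, did not pass, as given above. Ndufa6, an accessory subunit of the LYR protein family, went from 10.69, 10.51 and 10.81 to 10.96, 11.06 and 11.12 (0.38, adjusted p = 0.0284). Its call was lost without young replicate 1 or any 1 old replicate. Ndufb9, another LYR protein, in the membrane arm, went from 13.11, 13.10 and 13.09 to 13.27, 13.40 and 13.33 (0.23, adjusted p = 0.019). That call did not hold without young replicate 3, old replicate 2 or old replicate 3. For both, all old arrays lay above all young ones. Ndufa8, another accessory subunit, missed the threshold (0.18, adjusted p = 0.0552). In the other direction Ndufa13 read 14.35, 14.32 and 14.33 on young and 14.18, 14.27 and 14.21 on old arrays (-0.12, adjusted p = 0.107), and Ndufb7 read 13.77, 13.82 and 13.83 against 13.64, 13.76 and 13.68 (-0.11, adjusted p = 0.15). Their ages were apart, by little. The 3 complex I members under the filter were Ndufb1, at 2.94 to 3.22, Ndufa4l2, and Ndufb4, whose brightest probe set with that symbol alone was at the floor on all arrays. A pair of bright probe sets that Ndufb4 shares with Ndufb4b and Ndufb4c read 13.11 to 13.23 and 12.11 to 12.38 over the 6 arrays and did not pass (0.05, adjusted p = 0.477, and 0.15, adjusted p = 0.082).

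The assembly factors of complexes I and II were 12, all tested, with a median difference of 0.21. Of these, 4 rose (33.3%, against 22.0% of all genes) and 0 fell (against 18.5%). Ndufaf1, which helps to build the membrane arm of complex I, read 10.43, 10.26 and 10.43 on young and 10.73, 10.85 and 10.75 on old arrays, a difference of 0.41 (95% interval 0.22 to 0.59, limma adjusted p = 0.00976). Ndufaf4, an early-acting assembly factor that works with Ndufaf3, went from 12.18, 12.01 and 12.02 to 12.46, 12.50 and 12.38 (0.38, adjusted p = 0.0112), while its other probe set gave the same 0.38 (adjusted p = 0.011). Neither gene's ages overlapped.

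Ndufaf6 went from 8.93, 8.33 and 8.38 to 9.21, 9.14 and 9.10 (0.61, adjusted p = 0.0418), with young replicate 1 closer to the old arrays than the other young ones. It lost its call on leaving out any 1 array except young replicate 1. Sdhaf2, which attaches the flavin to Sdha, went from 10.51, 10.29 and 10.48 to 10.76, 10.91 and 10.80 (0.40, adjusted p = 0.0159), a call lost without old replicate 2. The remaining factors did not pass. Sdhaf4, which binds flavinated Sdha, read 11.64, 11.44 and 11.64 on young and 11.76, 11.82 and 11.86 on old arrays (0.24, adjusted p = 0.0532). Sdhaf3, which serves the iron-sulfur subunit of complex II, read 9.49, 9.30 and 9.56 against 9.22, 9.24 and 9.16, the lowest difference of the tested members (-0.24, 95% interval -0.44 to -0.05, adjusted p = 0.0613). These 2 factors of the same complex lay on opposite sides, each with the ages apart. Sdhaf1, which also serves that subunit, read 10.55, 10.34 and 10.41 against 10.42, 10.41 and 10.39 (-0.02), with old arrays inside the young range. The late-acting complex I factor Ndufaf2 read 12.36, 12.26 and 12.30 against 12.21, 12.26 and 12.08 (-0.12), and Ndufaf8 read 11.24, 11.24 and 11.30 against 11.11, 11.14 and 11.21 (-0.11). Without old replicate 2, 2 of the 12 factors rose, where 16% of all genes did. Ndufaf3 spread widely, with a 95% interval of -0.18 to 1.06.

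None of the 4 subunits of complex II, the succinate dehydrogenase that is also an enzyme of the citric acid cycle, passed at its brightest probe set. Differences were 0.14 for the flavoprotein Sdha, 0.19 for the iron-sulfur subunit Sdhb, 0.10 for Sdhc and 0.10 for Sdhd, the membrane anchors (adjusted p = 0.082 to 0.234). Sdha read 13.41, 13.32 and 13.44 on young and 13.52, 13.54 and 13.54 on old arrays. The old arrays lay above the young ones for Sdha, Sdhb and Sdhd, and overlapped them for Sdhc. Young replicate 2 was the lowest young array for 7 of the 8 complex II members and for 59 of all 87, against 5467 of the 10050 genes.

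Of the 9 members of complex III, the cytochrome bc1 complex, 3 rose and 0 fell, against 22.0% and 18.5% of all genes. Their median difference of 0.17 was the highest of the complexes. Cyc1, cytochrome c1, which hands electrons to cytochrome c, read 12.53, 12.47 and 12.49 on young and 12.77, 12.84 and 12.75 on old arrays. The difference was 0.29 (95% interval 0.17 to 0.41, limma adjusted p = 0.00835), and the ages did not overlap. Uqcrb, a small subunit near the ubiquinone site, rose by 0.20 at its brightest probe set (14.09, 14.05 and 13.97 to 14.21, 14.23 and 14.27, adjusted p = 0.0302) and by 0.42 at the other (adjusted p = 0.00225). Uqcrc2, a core protein facing the matrix, went from 13.70, 13.62 and 13.66 to 13.80, 13.87 and 13.82 (0.17, adjusted p = 0.0456).

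The Uqcrc2 call was lost on leaving out any 1 array and that of Uqcrb on leaving out any 1 but young replicate 1. Without young replicate 2 or 3, or any 1 old array, only 1 of the 9 therefore rose. In those fits 15.6 to 19.2% of all genes rose. The Rieske iron-sulfur protein Uqcrfs1 (0.20, adjusted p = 0.0534) and the core protein Uqcrc1 (0.20, adjusted p = 0.0721) differed about as much as Uqcrb and did not pass. Uqcrfs1 read 13.24, 13.08 and 13.18 on young and 13.34, 13.43 and 13.34 on old arrays, with the ages apart, as they also were for Uqcrc1, at 12.64 to 12.79 on young arrays and 12.84 or more on old ones. The small subunits Uqcr10, Uqcr11 and Uqcrq differed by 0.03, -0.04 and -0.05, with ages that overlapped. Cycs, cytochrome c itself, differed by 0.05 (interval -0.06 to 0.17).

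**Figure D2:**
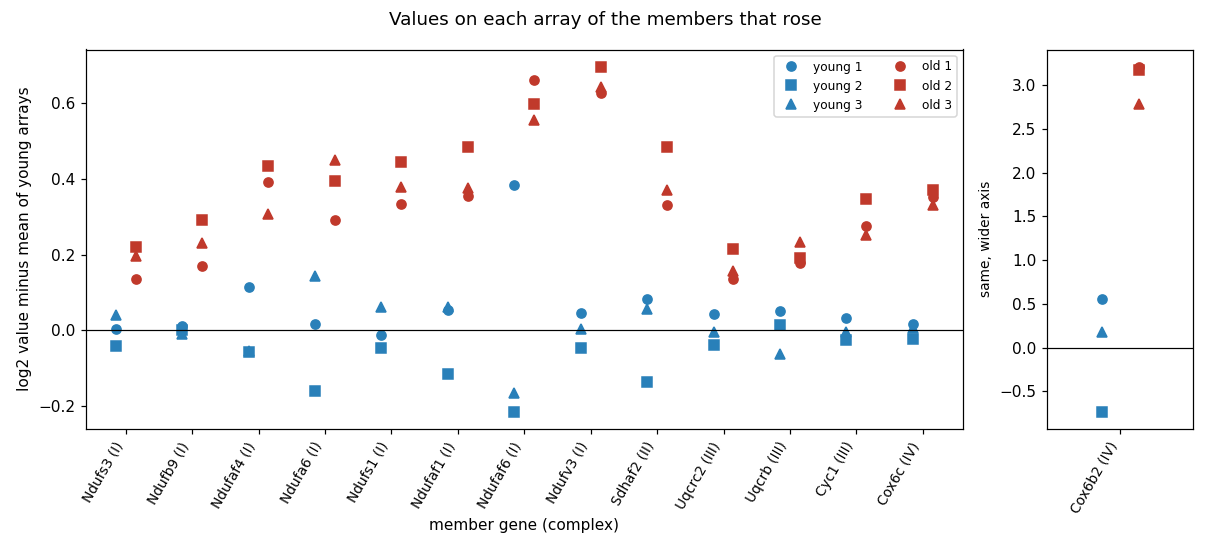
Log2 value on each array minus the mean of the 3 young arrays (y axis) for the 14 members that rose (x axis), with young arrays in blue, old arrays in red, and Cox6b2 on an axis of its own. For each of the 14, all old arrays lie above all young arrays, and young replicate 1 of Ndufaf6 lies nearest to the old ones.

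Complex IV, cytochrome c oxidase, had 11 tested members, of which 2 rose (18.2%, against 22.0% of all genes) and 0 fell (median 0.06). Cox6c, a small nuclear-encoded subunit, went from 13.64, 13.60 and 13.62 to 13.97, 13.99 and 13.95, a difference of 0.35 (95% interval 0.25 to 0.46, limma adjusted p = 0.00277). The SD within each age was 0.020 (n = 3), so the ages were far apart, and the second probe set rose by 0.20 (adjusted p = 0.0284). Other subunits did not pass, with differences of 0.07 for Cox5a and 0.02 for Cox5b. Cox4i1 read 13.73, 13.71 and 13.70 on young and 13.79, 13.84 and 13.81 on old arrays (0.10, adjusted p = 0.12), and Cox8a 12.63, 12.63 and 12.67 against 12.57, 12.67 and 12.65 (-0.01, interval -0.13 to 0.11).

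Several complex IV subunits exist in tissue-specific forms, and 6 of the 9 members under the filter were complex IV genes, all such forms. The lung form Cox4i2, the testis forms Cox7b2 and Cox8c and the muscle form Cox8b were listed at the floor value, log2 2.14, on all 6 arrays. The muscle forms Cox6a2 and Cox7a1 stayed at 2.65 or less. The widespread counterparts found among the members were bright, and Cox7b, that of Cox7b2, was not among them. Cox6a1 read 14.26, 14.29 and 14.28 on young and 14.23, 14.36 and 14.30 on old arrays (0.02), and Cox7a2 14.54, 14.57 and 14.53 against 14.56, 14.62 and 14.61 (0.05). The 95% intervals of both differences lay between -0.11 and 0.16. Ndufa4l2, the form of Ndufa4 that low oxygen induces, was also at the floor on every array, while Ndufa4 read 13.41, 13.40 and 13.42 against 13.49, 13.57 and 13.55 (0.12, adjusted p = 0.0828). The supercomplex factor Cox7a2l read 13.51, 13.32 and 13.47 against 13.46, 13.51 and 13.48 (0.05), with overlapping ages.

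Cox6b2 was the exception among the tissue-specific forms. Known in mammals as the testis form of a subunit at the dimer interface of complex IV, it read 5.36, 4.08 and 4.98 on young and 8.02, 7.98 and 7.59 on old arrays. The rise was 3.06 on the log2 scale (95% interval 2.19 to 3.93, 8.32-fold, limma adjusted p = 0.00231) from 1 probe set, the largest of the tested members. The ages were far apart, and the young arrays, near the dim end of the scale, spread more (SD 0.66) than the old ones (SD 0.23, n = 3 each). Its widespread counterpart Cox6b1 read 14.01, 14.06 and 14.06 on young and 14.08, 14.12 and 14.10 on old arrays (0.06, adjusted p = 0.327). The bases before the start of both genes are shown because these forms of the same subunit differed so unequally between the ages. They are the 250 bases upstream of the annotated start, from RefSeq on GRCm38.p6, minus strand, at chr7:30626115-30626364 for Cox6b1 and chr7:4753095-4753344 for Cox6b2. The first holds 14 CpG dinucleotides and the second 8, with a GC content of 54.0% and 54.8%, and neither holds a motif listed further on, so no base is in capitals.
Cox6b1: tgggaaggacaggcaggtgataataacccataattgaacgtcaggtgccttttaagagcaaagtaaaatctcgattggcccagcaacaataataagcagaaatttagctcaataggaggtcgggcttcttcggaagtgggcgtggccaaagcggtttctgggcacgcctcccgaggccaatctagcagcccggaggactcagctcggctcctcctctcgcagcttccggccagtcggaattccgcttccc
Cox6b2: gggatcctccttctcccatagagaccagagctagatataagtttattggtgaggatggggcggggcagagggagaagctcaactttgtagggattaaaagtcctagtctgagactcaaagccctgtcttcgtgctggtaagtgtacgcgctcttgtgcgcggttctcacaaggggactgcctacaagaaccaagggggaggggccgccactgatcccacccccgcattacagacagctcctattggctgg

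In complex V, the ATP synthase, 0 of 17 members passed in limma, with 1 higher and 1 lower at an unadjusted p under 0.05. Of all genes 22.0% rose and 18.5% fell at the adjusted threshold, and 2802 rose and 2402 fell of 10050 at the unadjusted one. The median difference was 0.03, and every 95% interval lay between -0.28 and 0.33. The F1 part, which faces the matrix, held both extremes. Atp5e, its small epsilon subunit, read 13.27, 13.19 and 13.29 on young and 13.39, 13.51 and 13.41 on old arrays (0.19, adjusted p = 0.0511). Atp5d, its delta subunit, went the other way, from 13.70, 13.75 and 13.78 to 13.53, 13.60 and 13.62 (-0.16, adjusted p = 0.0531). In both the ages were apart, and both p-values lay just past the threshold. The alpha, beta and gamma subunits Atp5a1, Atp5b and Atp5c1 differed by 0.06, -0.04 and 0.01. Atp5b, the catalytic one, read 14.10, 14.11 and 14.17 on young and 14.07, 14.08 and 14.10 on old arrays, with overlapping ages.

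In the membrane part of the ATP synthase, the 3 genes that encode the ring-forming subunit c, Atp5g1, Atp5g2 and Atp5g3, differed by 0.02, 0.01 and 0.03, with intervals between -0.09 and 0.14. Atp5g1 read 13.40, 13.39 and 13.44 on young and 13.39, 13.48 and 13.44 on old arrays, Atp5g2 13.33, 13.32 and 13.35 against 13.32, 13.38 and 13.34, and Atp5g3 14.59, 14.55 and 14.56 against 14.61, 14.60 and 14.57. The ages overlapped in all of them. The stalk proteins differed little too, with Atp5o at 0.14, Atp5pb at 0.03 and Atp5h at -0.02. Atp5l (0.16, adjusted p = 0.128) and Atp5k (0.12, adjusted p = 0.108) are small subunits at the dimer interface. With the trend and robust options together, 5 complex V members were called higher and 1 lower, against 25.8% and 22.7% of all genes.

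**Figure D3:**
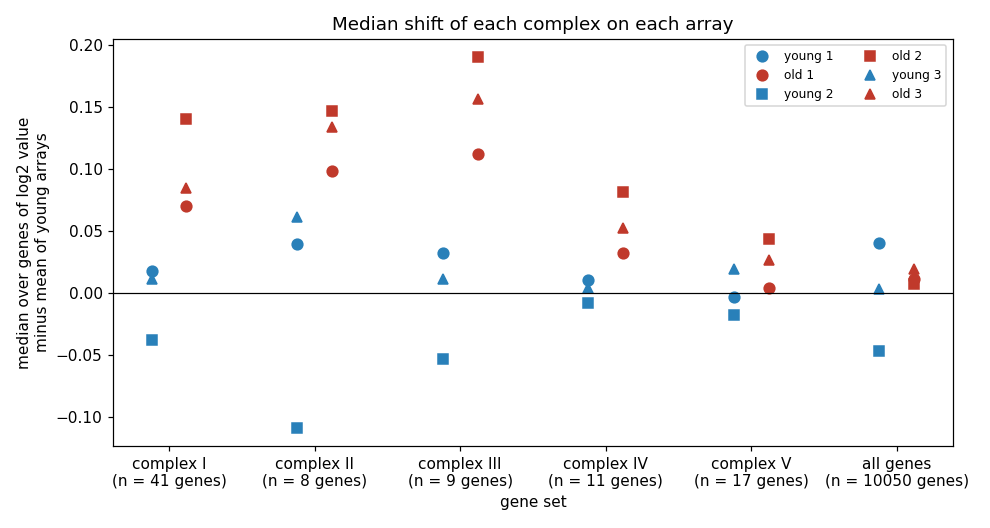
Median over the tested genes of each complex of the log2 value minus the gene's young mean (y axis), for each array (young in blue, old in red). Old arrays lie above all young ones in complexes I to IV, from 0.11 to 0.19 in complex III, and between 0.00 and 0.04 in complex V, where old replicate 1 lies below young replicate 3.

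The medians per array summarise the complexes. In complex III they were 0.11, 0.19 and 0.16 on the old arrays and 0.03, -0.05 and 0.01 on the young ones, while in complex V they were 0.00, 0.04 and 0.03 against 0.00, -0.02 and 0.02. In complex II young replicate 2 stood at -0.11, below the other young arrays at 0.04 and 0.06. Differences between complexes were not tested.

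Further probe sets gave a check on the brightest one. Of the 70 further tested probe sets of members, 11 rose and 0 fell, against 20.1% and 16.5% of all kept probe sets. There were 0 genes with probe sets of opposite signs that both had an unadjusted p under 0.05. Among the members that rose, Ndufaf4, Uqcrb and Cox6c rose at both tested probe sets. The other probe set of Ndufb9, Sdhaf2 and Uqcrc2 did not pass (0.12, 0.20 and 0.15). In 8 genes a further probe set rose although the brightest one had not passed. Sdha rose by 0.28 (adjusted p = 0.0106) and Sdhd by 0.19 (adjusted p = 0.0192) at such a probe set. Larger differences came from dimmer probe sets. Atp5c1 read 6.23, 7.06 and 6.55 on young and 7.84, 7.68 and 7.93 on old arrays at one of these (1.21, adjusted p = 0.0105), against 0.01 at its bright one. Cox7c differed by 1.38 (adjusted p = 0.0457) at a dim probe set and 0.29 at its brightest, Ndufa10 by 1.06 (adjusted p = 0.0298) and 0.18, and Uqcr10 by 0.67 (adjusted p = 0.0326) and 0.03. The transcript parts these probe sets read were not analysed here. Another 10 probe sets carry several symbols, among them the bright ones of Ndufb4, Ndufs6 and Ndufa11, and 0 of the 6 tested passed (4 lay under the filter).

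**Figure D4:**
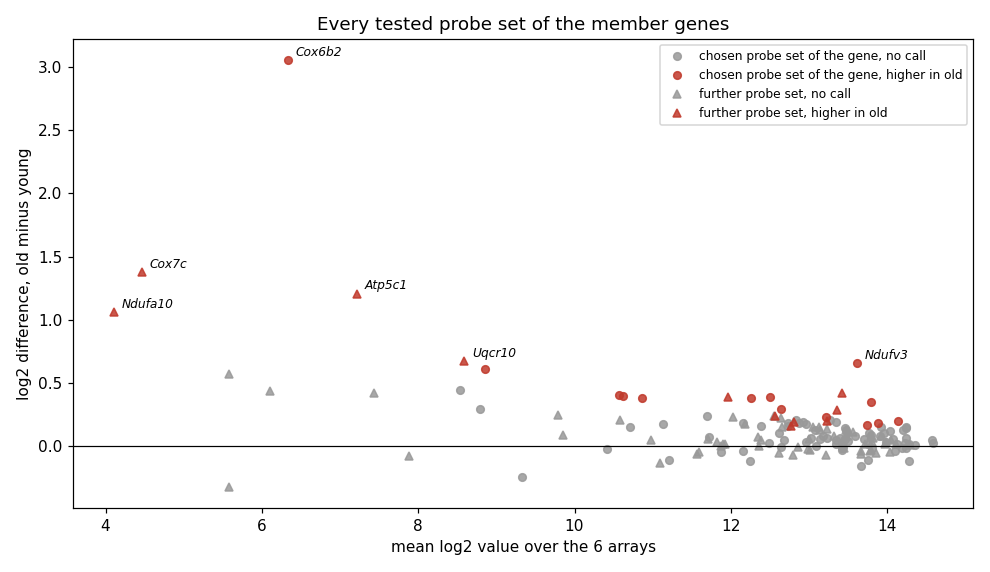
Log2 difference between old and young arrays (y axis) against the mean log2 value over the 6 arrays (x axis) for every tested probe set of the members, chosen ones as circles and further ones as triangles, red where higher in old cells. Most lie above log2 12 with small differences, and Cox6b2 and the dim probe sets of Cox7c, Atp5c1 and Ndufa10 lie above 1.

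Genes around the respiratory chain were listed to show what the members' changes accompanied. Their counts over all 6 arrays are to be read against 22.0% of genes rising and 18.5% falling. Of 16 tested genes of the citric acid cycle and pyruvate dehydrogenase, 8 rose and 0 fell (median 0.18). Dld and Dlat, subunits of pyruvate dehydrogenase, rose by 0.46 (limma adjusted p = 0.0049) and 0.51 (adjusted p = 0.00641), and the succinyl-CoA ligase subunit Sucla2 by 0.30 (adjusted p = 0.0117). Of the 16, 3 rose without old replicate 2 or without old replicate 3, 4 without young replicate 1 and 5 without young replicate 2. The shares of all genes rising in those fits were 16%, 15.6%, 20.9% and 19.2%. Of 35 tested assembly genes outside the members 11 rose and 1 fell (median 0.10). They included Cox15, which makes the heme A of complex IV (0.50, adjusted p = 0.00155), Foxred1, a complex I assembly factor (0.65, adjusted p = 0.00377), and Coa6, which acts in copper delivery to complex IV (0.41, adjusted p = 0.00667). The rises numbered 5 without old replicate 1 or 3 and 6 without old replicate 2, where 17.1%, 15.6% and 16% of all genes rose. The 1 fall, Higd1a (-0.29, adjusted p = 0.00562), was contradicted by its second probe set, which rose by 0.27 (adjusted p = 0.0343).

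Of 11 tested genes of ubiquinone synthesis 4 rose and 0 fell (median 0.08), led by Coq9 (0.61, limma adjusted p = 0.00144). The rises numbered 2 without old replicate 1 or 2, where 17.1% and 16% of all genes rose. Of 8 tested genes of other electron entry and uncoupling 4 rose and 0 fell (median 0.18). In that group Gpd2, the mitochondrial glycerol-3-phosphate dehydrogenase, rose by 0.25 (adjusted p = 0.00794). The group's count was less stable, with 1 rise left without young replicate 2, old replicate 2 or old replicate 3. It was 2 without young replicate 3 or old replicate 1. The shares of all genes rising in those fits were 19.2%, 16%, 15.6%, 17.7% and 17.1%. The 13 mitochondrially encoded subunits were not analysed here.

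Regulators went in both directions. Of 9 tested regulators of mitochondrial biogenesis 2 rose and 3 fell. Ppargc1a, the coactivator PGC-1alpha that drives mitochondrial biogenesis, read 11.91, 11.84 and 11.83 on young and 12.58, 12.75 and 12.53 on old arrays. The difference was 0.76 (95% interval 0.58 to 0.94, 1.70-fold, limma adjusted p = 0.00123), and all 5 of its probe sets rose, by 0.75 to 1.24. Sirt3, a mitochondrial deacetylase, rose by 0.73 (adjusted p = 0.00297).

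In contrast, Nrf1, the nuclear respiratory factor that binds promoters of many respiratory chain genes, read 7.30, 8.49 and 7.56 on young and 6.18, 5.79 and 5.28 on old arrays. It fell by 2.03 on the log2 scale (95% interval -2.99 to -1.07, adjusted p = 0.0117). Another probe set fell by 0.64 (adjusted p = 0.0483), and the last had a difference of -0.39 that did not pass (adjusted p = 0.412). The related coactivator Pprc1 fell by 0.51 (adjusted p = 0.0141), and Gabpb1, a subunit of the other respiratory factor GABP, by 0.29 (adjusted p = 0.0191). Gabpa, which carries the DNA-binding domain of GABP, differed by 0.08 (adjusted p = 0.375).

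Of 14 tested genes of mitochondrial DNA expression 1 rose and 3 fell. Tfam, which packages mitochondrial DNA and starts its transcription, went from 12.43, 12.36 and 12.51 to 12.10, 12.06 and 12.06 (-0.36, 95% interval -0.50 to -0.22, limma adjusted p = 0.00624), and its other probe set fell by 0.35 (adjusted p = 0.0136). The mitochondrial DNA polymerase Polg fell by 0.40 (adjusted p = 0.0266) and the RNA polymerase Polrmt by 0.41 (adjusted p = 0.0488). Polg lost its call without young replicate 1 or 3 or old replicate 2 or 3, and Polrmt without young replicate 1 or 3 or old replicate 1 or 3. Mterf3, known in mice to hold back mitochondrial transcription, rose by 0.47 (adjusted p = 0.0066).

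**Figure D5:**
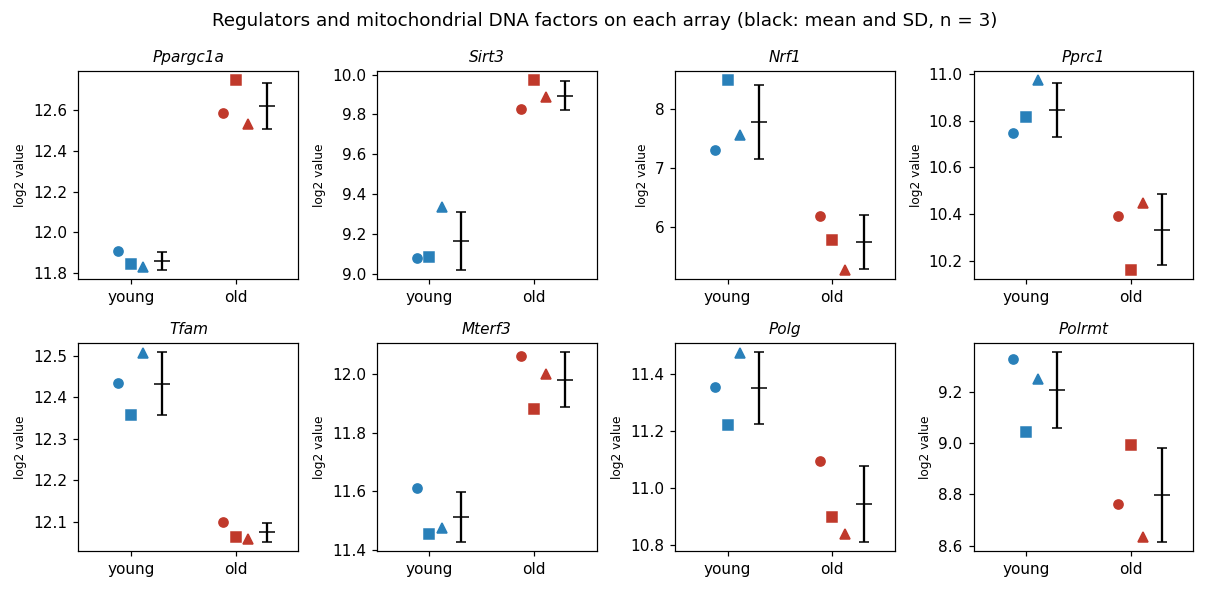
Log2 value of 8 regulators and mitochondrial DNA factors on each array (points, 1 panel a gene, each with its own y axis) with the mean and SD of each age in black (n = 3). Ppargc1a, Sirt3 and Mterf3 are higher and Nrf1, Pprc1, Tfam, Polg and Polrmt lower on all old arrays.

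The members' promoters were searched for the core motif of Nrf1, GCATGCGC, on both strands, in the 250 bases before each start. RefSeq windows were matched to 79 of the 96 members, 7 of the 14 that rose among them. The motif was in 10.7% of the 84 member windows and in 2.26% of all 32851 windows. The 9 genes that hold it are Atp5g2, Atp5k, Atp5l, Cox6a1, Cycs, Ndufa6, Ndufa8, Ndufaf4 and Sdhb. Their differences ran from 0.01 to 0.38, with a median of 0.16, and 2 of the 9 rose, near the 22.0% of all genes. The 65 tested members without it had a median of 0.06, and 5 of them rose. The ETS motif CCGGAAGT, of the kind GABP binds, was in 3.57% of member windows and 2.88% of all, and the YY1 motif AAGATGGC in 1.19% and 1.56%. A match is a string of letters, not a shown binding site.

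The windows of Ndufaf4 and Ndufa6 are given, with the motif in capitals, because these members hold it and rose. They lie at chr4:24897833-24898082 on the plus strand and chr15:82354292-82354541 on the minus strand of GRCm38.p6. The match starts 113 bases before the start of Ndufaf4, where the motif overlaps itself on the other strand, and 83 bases before that of Ndufa6.
Ndufaf4: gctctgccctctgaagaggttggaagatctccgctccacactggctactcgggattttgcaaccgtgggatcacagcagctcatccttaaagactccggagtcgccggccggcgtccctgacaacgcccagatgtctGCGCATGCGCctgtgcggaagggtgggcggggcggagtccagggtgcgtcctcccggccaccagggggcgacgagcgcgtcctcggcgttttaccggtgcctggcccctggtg
Ndufa6: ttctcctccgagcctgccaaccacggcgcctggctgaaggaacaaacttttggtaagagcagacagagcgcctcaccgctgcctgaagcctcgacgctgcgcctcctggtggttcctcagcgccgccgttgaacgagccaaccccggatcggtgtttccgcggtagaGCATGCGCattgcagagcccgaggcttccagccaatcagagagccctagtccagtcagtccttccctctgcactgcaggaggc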

How the data were processed

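The authors deposited log2 levels for each probe set, with 1 array a sample, and used GCRMA per the submitters' processing notes. That the values are log2 follows from their range. GCRMA corrects background by probe sequence, and 38.3 to 40.3% of values lie at a shared floor, log2 2.14, where differences cannot be measured. Its version and the scanner files were not used here. Symbols come from the platform annotation (34945 probe sets with 1 symbol, 932 with several, 9160 unnamed, 64 controls), and 99.4% of Entrez identifiers matched RefSeq genes of GRCm38.p6. Of 45101 probe sets 19858 were kept, above log2 4 on at least 3 arrays. Old and young arrays were compared by limma 3.58.1 (R 4.3.3), using lmFit and then eBayes with no trend, on 1.47 prior and 4 residual degrees of freedom. The two-sided p-values were adjusted by Benjamini-Hochberg across the 19858 probe sets. Groups follow the sample titles. A gene stands for its brightest probe set. Precision is limited by the number of arrays. Figures were drawn with matplotlib 3.10.9.

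Members and gene lists were chosen with earlier results of these data known. Any member could be named. Values on each array are given for members that passed, for those nearest to passing in either direction within a complex and for tissue-specific forms with their counterparts. Of each neighbouring list up to 4 genes with the smallest p were named. Gabpb1 and Gabpa were named after their values were seen, as was the set of motifs. Alternatives were the filter, quantile normalization again, centring on array medians, array weights, a block for the replicate number, eBayes with trend and robust options, the mean of a gene's probe sets, a threshold of 0.01 and leaving out each array. Leaving the assembly factors out of the members was added after seeing the data.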

Additional observations from a re-analysis of the deposited data

How the results depend on the processing

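The median difference of the members, 0.080, stayed between 0.065 and 0.100 in the settings tried and above that of all probe sets in each. The 14 rises became 37 with trend and robust options (25.8% of all genes then rose), 6 with the replicate block (17.2% of all genes) and 6 at a threshold of 0.01 (12.5% of all genes). They numbered 7 to 11 on leaving out 1 array (15.6 to 20.9% of all genes), and 10 without the assembly factors. Without the filter 15 of 96 members rose, a share above the 9.06% of all genes. The stricter filter gave 19 rises (23% of all genes) and quantile normalization again 19 (22%). Centring on array medians gave 17 (22.4%), array weights 17 (23.2%) and the mean of a gene's probe sets 20 (24.2%). In place of 0 falls, 1 was called with the stricter filter (Atp5d), 1 with quantile normalization again and 1 with centring on array medians (both Sdhaf3). Array weights gave 2 falls and trend and robust options 3. In those settings in turn, 19.6%, 19.3%, 19.9%, 20.8% and 22.7% of all genes fell. On leaving out 1 array 0 to 1 member fell, against 12.6 to 18.7% of all genes. No other scaling moved the median of all probe sets by over 0.1. Same-numbered arrays deviated with correlations of -0.16, -0.11 and 0.16. With 1 pair of arrays a number, whether the numbers pair the samples cannot be told from these. All 14 members that rose kept their sign in every setting.

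Signs were followed for part of the genes, without most of the complex I accessory subunits that did not pass. Sign changes occurred in 18 of the values followed, none past the threshold. They were Ndufs7 at -0.0080 (centring), -0.0057 (array weights), -0.067 (mean of probe sets), -0.023 (without young replicate 2) and -0.025 (without old replicate 2), Cox8a at 0.0090 (mean of probe sets), 0.0026 (without young replicate 3) and 0.019 (without old replicate 1), and Higd1a at 0.12 (mean of probe sets). On leaving out 1 array, differences ranged from -0.025 to 0.018 for Ndufs7, -0.030 to 0.019 for Cox8a, -0.072 to 0.035 for Sdhaf1, -0.0021 to 0.030 for Atp5j2, -0.0022 to 0.091 for Cox7a2l, -0.11 to 0.0035 for Uqcrq, -0.036 to 0.020 for Atp5mpl, -0.00089 to 0.034 for Atp5c1, -0.0025 to 0.023 for Atp5g2, -0.013 to 0.053 for Cox6a1 and -0.027 to 0.075 for Uqcr10. Apart from Higd1a, whose probe sets disagree, these genes differed little between the ages. The cause of the other changes was not tested. The 3 arrays an age limit what differences of the members' size can show.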
